A study of Mus musculus with 16 samples.

Results

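The 10 water and urea handling genes described here were the aquaporins Aqp1, Aqp2, Aqp3, Aqp4, Aqp7 and Aqp11, the vasopressin receptors Avpr2 and Avpr1a, the urea transporter gene Slc14a2 and the uromodulin gene Umod. They were taken by gene symbol from the 57186 genes of the deposited kidney count table, and all 10 passed the filter on low counts. Whole-kidney RNA was sequenced from 16 male mice on a C57BL/6J background, all of which carried Elmo1H/H, a genotype that raises expression of the cell motility gene Elmo1. Non-diabetic mice were Elmo1H/H alone, and diabetic mice also carried the insulin mutation Ins2 Akita/+, so the controls shared the Elmo1 genotype and no group was wild type. Mice of each genotype were untreated or received vitamin B12 at 10 mg/kg per day in the drinking water from 8 weeks of age. The 4 groups of 4 kidneys were non-diabetic control (ND_C), non-diabetic with B12 (ND_B12), diabetic control (D_C) and diabetic with B12 (D_B12). The labels give 16 weeks as the length of treatment, whereas the study's methods give the same number as the age at which kidneys were taken.

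Water leaves the nephron through aquaporin channels, which sit at high density in the proximal tubule and thin descending limb and, under the control of vasopressin, in the collecting duct. Vasopressin binds the receptor AVPR2 on principal cells, raises cAMP through Gs and adenylyl cyclase, moves AQP2 to the apical membrane and increases its transcription, while AQP3 and AQP4 let the water out across the basolateral side. Urea, carried by the UT-A proteins encoded by Slc14a2, maintains the osmotic gradient of the inner medulla along which this water moves. Uromodulin is made by the thick ascending limb, the segment that dilutes the tubular fluid, and is the main protein of normal urine. Mice with the Akita mutation are short of insulin and pass large volumes of glucose-rich urine.

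The labels need caution before any direction is read. Group means that the study published for 158 genes were set against every choice of 4 of the 16 libraries, and the best match held the labelled libraries in part only. By this match 5 libraries fell in their labelled group and 11 in another. The published ND_C means were matched by ND_C 1, 2 and 4 with ND_B12 1, and the ND_B12 means by ND_C 3, ND_B12 2 and 3 and D_C 1. The published D_C means were matched by all 4 libraries labelled D_B12, and the D_B12 means by D_C 2, 3 and 4 with ND_B12 4. The diabetes label was contradicted for 2 libraries, those labelled D_C 1 and ND_B12 4, and not for the other 14. Groups are named here as the labels name them, and each member's average diabetes difference is also given without these 2 libraries. Because the 2 were picked by expression in these same data, leaving them out can by itself widen the diabetes differences. Which diabetic kidneys were untreated rests on the labels alone. If D_C and D_B12 were exchanged, the diabetes differences in untreated and B12-treated kidneys would no longer be those of the groups named, and the B12 difference in diabetic kidneys and the interaction could turn. Library totals ran from 65271308 to 91771136 counts. Markers of every nephron segment were present, and the summed normalized counts of 6 skeletal muscle markers lay between 23.7 and 73.5 in every library.

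Per length, Umod was the most abundant of the 10 genes, at 1229 ± 252 TPM (a length-scaled share of the library's transcripts, mean ± SD over 16 libraries), followed by Aqp1 at 371 ± 47.2 TPM. Aqp3 (82.5 ± 18.6 TPM) and Aqp2 (58.6 ± 37.7 TPM) came next, and the ranges of these 2 overlapped, with Aqp2 reaching 139 TPM in a D_C kidney. Aqp11 (26.1 ± 2.57 TPM), Aqp7 (21.3 ± 2.85 TPM), Aqp4 (20.2 ± 6.51 TPM) and Slc14a2 (18.2 ± 12.5 TPM) came after these. Aqp7, Aqp4 and Slc14a2 did not differ beyond their spread, whereas Aqp11 and Aqp7 did not overlap within ND_C or within ND_B12. Both receptors were low, with Avpr1a at 3.60 ± 0.547 TPM and Avpr2 at 1.87 ± 1.16 TPM. Slc14a2, Avpr2 and Aqp2 thus had the widest relative spread, and Aqp11 the narrowest. Values from here on are normalized counts, that is, counts divided by a size factor for each library, which may be compared between libraries but not between genes. Fold changes come from edgeR, with p-values adjusted over all 25408 genes tested, and a gene is called at an adjusted p below 0.05.

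**Figure D1:**
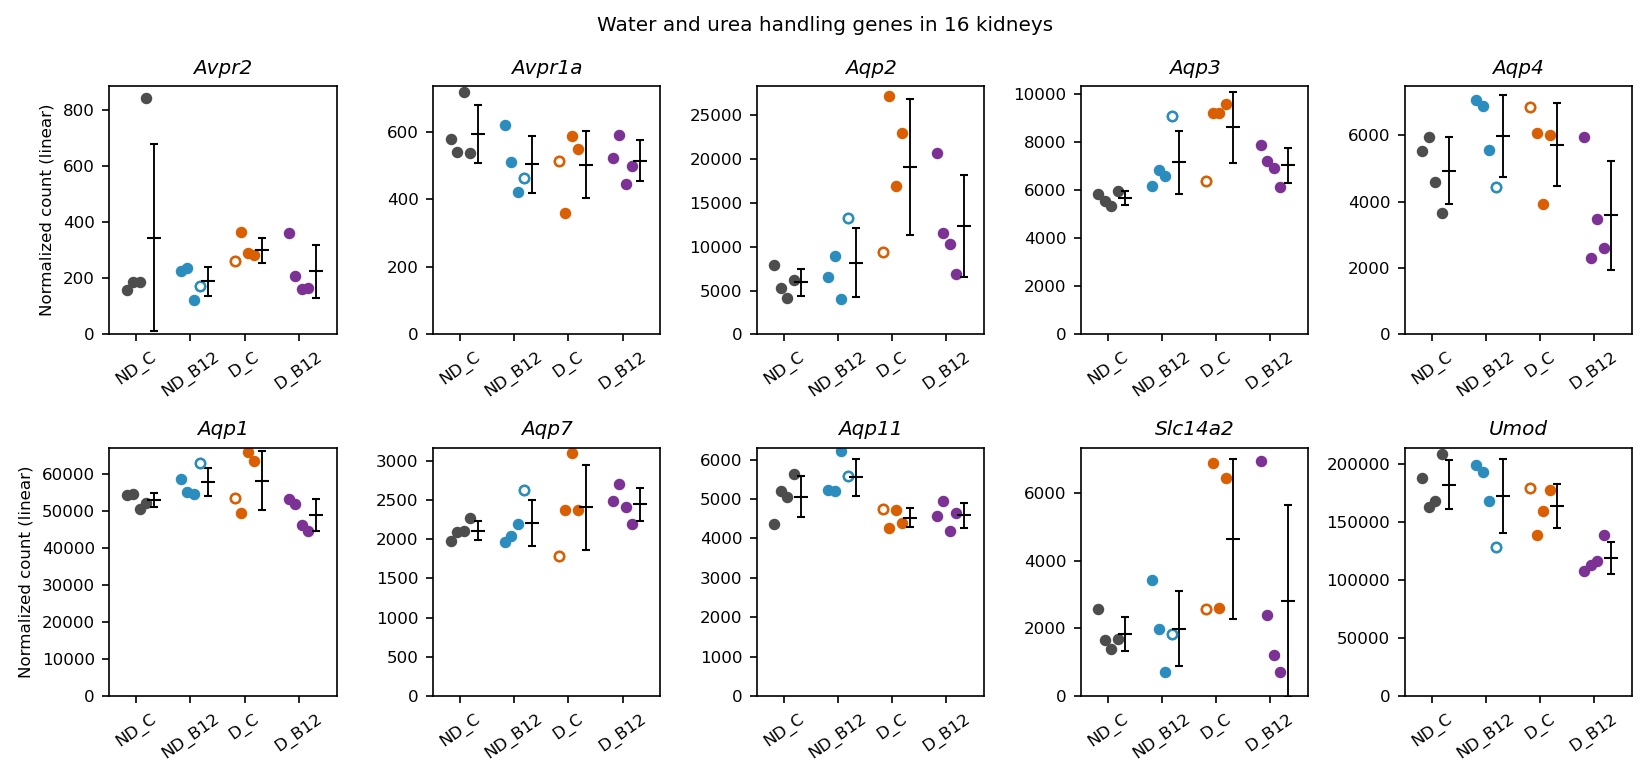
Normalized counts (linear axis from 0) of the 10 genes in each of 16 kidneys, by labelled group, with mean and SD (n = 4) at the right of each group. Open circles are the libraries labelled ND_B12 4 and D_C 1, whose diabetes label was contradicted. Aqp2 reached 27158 in D_C against at most 7904 in ND_C, and Umod lay between 107494 and 138458 in D_B12.

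Avpr2, the receptor of principal cells and of the thick ascending limb, was expressed at 159, 188, 186 and 844 normalized counts in ND_C 1 to 4. The ND_B12 kidneys had 227, 235, 122 and 171, the D_C kidneys 263, 366, 290 and 283, and those of D_B12 361, 210, 163 and 165. Apart from ND_C 4, every D_C value was above every ND_C value, and with it the groups overlapped. The difference of diabetic from non-diabetic kidneys, averaged over both treatments, was 0.02 ± 0.32 on the log2 scale (SE, adjusted p = 0.980), 0.03 without D_C 1 and ND_B12 4, and 0.50 without ND_C 4. Most of the exonic sequence of Avpr2 is shared with another gene, since 2347 of its 2886 exonic bases overlap exons of Arhgap4 on the opposite strand of the X chromosome (GRCm39, X:72935708-72939108 for Avpr2). In ND_C 4, Arhgap4 was at its lowest, 498, and Avpr2 held 62.9% of the summed counts of this pair, against 12.8 to 24.2% in the other 15 libraries. The study's methods assigned strand to spliced alignments by intron motif, but do not say whether counting was strand-specific, so reads of these 2 genes may not have been told apart.

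Avpr1a, a vasopressin receptor coupled to calcium signaling and present in intercalated cells and vessels, varied little. Its lowest value was 361, in D_C 2, and its highest 718, in ND_C 3. The mean was 594 ± 85.1 in ND_C (SD, n = 4), and the other group means lay between 503 and 515. Here the average diabetes difference was -0.10 ± 0.11 (adjusted p = 0.657), and -0.13 without D_C 1 and ND_B12 4.

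Aqp2, the vasopressin-regulated apical channel of principal cells, was higher in diabetic kidneys. Its normalized counts were 7904, 5335, 4197 and 6249 in ND_C 1 to 4 and 9356, 27158, 16916 and 23006 in D_C 1 to 4. No D_C kidney overlapped the ND_C kidneys, and the lowest D_C value came from the library whose diabetes label was contradicted. Fitted expression was 3.23-fold higher in D_C (log2 fold change 1.69 ± 0.39, adjusted p = 0.0436), and the log2 fold change was 1.91 without D_C 1 and ND_B12 4 (adjusted p = 0.00531). In B12-treated mice Aqp2 stood at 6593, 8907, 4054 and 13217 without diabetes and at 20632, 11557, 10364 and 6943 with it. Here the groups overlapped, and the log2 difference of 0.59 ± 0.38 was not called (adjusted p = 0.453). Averaged over treatments, Aqp2 was 2.20-fold higher with diabetes (1.14 ± 0.27, adjusted p = 0.0348), and without D_C 1 and ND_B12 4 the log2 difference was 1.42 (adjusted p = 0.00241, over a range of 0.00241 to 0.271 in all alternatives).

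Aqp3, the basolateral channel of the same cells that also passes glycerol, moved in the same direction in untreated mice by a smaller factor. Its values were 5854, 5550, 5343 and 5980 in ND_C and 6391, 9212, 9211 and 9594 in D_C. The 3 D_C kidneys other than D_C 1 lay close together, and no D_C value reached down to ND_C. Fitted expression was 1.51-fold higher in D_C (log2 fold change 0.60 ± 0.13, adjusted p = 0.0397), and the log2 fold change was 0.71 without D_C 1 and ND_B12 4 (adjusted p = 0.000399). Averaged over treatments, Aqp3 differed by 0.29 ± 0.09 and was not called (adjusted p = 0.0992). Without D_C 1 and ND_B12 4 this average was 0.41 (adjusted p = 0.000392, over a range of 0.000392 to 0.731 in all alternatives). In the B12-treated mice the values were 6161, 6825, 6579 and 9074 in ND_B12 and 7893, 7196, 6934 and 6128 in D_B12, with a log2 difference of -0.03 ± 0.13. The difference between these 2 diabetes effects was -0.63 ± 0.18 and was not called (adjusted p = 0.125), while without D_C 1 it was -0.72 (adjusted p = 0.0401, over a range of 0.0298 to 0.220 in all alternatives).

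Thus 2 of the 10 genes, Aqp2 and Aqp3, rose with diabetes in the kidneys labelled untreated, where 1.66% of all genes tested were called. These 2 were also without overlap between D_C and ND_C, as were 9.44% of all genes. Averaged over treatments 2 of 10 were called, Aqp2 higher and Aqp11 lower, against 3.02% of all genes. Without D_C 1 and ND_B12 4, 5 of 10 were called (Aqp2, Aqp3 and Aqp7 higher, Aqp11 and Umod lower), where the share among all genes rose to 10.2%. The calls in untreated kidneys stood close to the threshold, and both were lost with a replicate block, with no filter beyond 1 count and with the label date in the fit (adjusted p up to 0.135 for Aqp2 and 0.285 for Aqp3). The call of Aqp2 was lost without any one of ND_C 1 to 4, ND_B12 2, D_C 2 to 4 or D_B12 2 (log2 fold change 1.47 to 1.90 and adjusted p 0.0129 to 0.126 over the libraries left out), and that of Aqp3 without any of these but ND_C 4 (0.53 to 0.71, adjusted p 0.00599 to 0.115). The average call of Aqp2 held without ND_C 1, ND_B12 4, D_C 1 or D_B12 4 and was lost without any of the other libraries (0.96 to 1.31, adjusted p 0.0103 to 0.0729).

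Of 8 further principal cell markers, 0 were called for the average effect that called Aqp2. Their median log2 difference was 0.07, against 0.01 over all genes. In untreated kidneys, where Aqp2 and Aqp3 were called, 7 of the 8 were higher in D_C (median 0.17) and 0 were called. They ran from -0.08 ± 0.13 for Npnt to 0.63 ± 0.23 for Fxyd4 (adjusted p = 0.151). Scnn1b and Scnn1g, subunits of the epithelial sodium channel ENaC, differed by 0.03 ± 0.06 and 0.05 ± 0.07 on average. Both of these signs turned when the label date entered the fit. In untreated kidneys they differed by 0.25 ± 0.08 (adjusted p = 0.102) and 0.18 ± 0.10 (adjusted p = 0.358). Hsd11b2, the enzyme that shields principal cells from glucocorticoid, differed by -0.15 ± 0.08 on average and by 0.12 ± 0.11 in untreated kidneys. Kcne1, a potassium channel subunit chosen after its values were seen, differed by 0.35 on average (adjusted p = 0.0992). In untreated kidneys Kcne1 differed by 0.35 ± 0.16 (adjusted p = 0.257). It was the 1 of the 8 called on average without D_C 1 and ND_B12 4, at 0.48 (adjusted p = 0.00346), against 10.2% of all genes. The ratio of Aqp2 to Scnn1b was 3.03 ± 0.95 in ND_C and 8.06 ± 3.14 in D_C (SD, n = 4). The summed principal cell markers lay between 24505 and 29216 in ND_C and between 26173 and 31363 in D_C. Npnt and Hsd11b2, at means of 10050 and 7977 normalized counts in non-diabetic kidneys, weighed most in this sum. Thin limb markers moved with Aqp2, with sums of 8475 to 12252 in ND_C against 14541 to 22620 in D_C, and of 8215 to 12753 against 9542 to 16311 in the B12-treated groups. Endothelial markers moved with Aqp2 and Aqp3 as well, with sums of 25750 to 27805 in ND_C against 29889 to 37094 in D_C, without overlap, and of 27870 to 33558 against 27714 to 33018 in the B12-treated groups. All 6 were higher in D_C (median log2 difference 0.34) with 0 called. Without D_C 1 and ND_B12 4, where 10.2% of all genes were called, 3 of the 6 were called on average. These were Cdh5 (adjusted p = 0.00212), Plvap (0.0175) and Pecam1 (0.0200), named after their values were seen. The part of these marker lists in the Aqp2 and Aqp3 differences was not tested. In whole-kidney RNA a change in the number of cells of a type and a change in RNA per cell cannot be told apart.

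The labels also carry a date, whose meaning they do not give, and it nearly separates diabetic from non-diabetic libraries. A single date, 21 days after the first, holds both, in ND_B12 2, 3 and 4 and D_C 1. On that date Aqp2 was 8907, 4054 and 13217 in the non-diabetic libraries and 9356 in the diabetic library, which lay inside their range. Aqp3 in D_C 1 (6391) lay below those 3 libraries (6579 to 9074). Both contradicted libraries are among these 4, and date and diabetes cannot otherwise be told apart.

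The sequence just upstream of Aqp2 and Aqp3 is shown because these genes rose together in untreated kidneys. Each is the 250 bases before the RefSeq start (RefSeq table of GRCm38.p6, found once each in GRCm39), 5′ to 3′ on the gene's strand, at 15:99476687-99476936 (plus strand) for Aqp2 and 4:41098184-41098433 (minus strand) for Aqp3. Capitals mark motifs found on either strand, of which TGACG is the core of the cAMP response element. The other is AGATAA, which GATA factors recognise.
Aqp2: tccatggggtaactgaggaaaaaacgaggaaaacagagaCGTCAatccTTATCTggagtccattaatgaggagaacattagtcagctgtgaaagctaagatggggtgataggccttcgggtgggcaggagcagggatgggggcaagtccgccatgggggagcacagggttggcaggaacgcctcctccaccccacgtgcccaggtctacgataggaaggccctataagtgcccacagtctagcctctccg
Aqp3: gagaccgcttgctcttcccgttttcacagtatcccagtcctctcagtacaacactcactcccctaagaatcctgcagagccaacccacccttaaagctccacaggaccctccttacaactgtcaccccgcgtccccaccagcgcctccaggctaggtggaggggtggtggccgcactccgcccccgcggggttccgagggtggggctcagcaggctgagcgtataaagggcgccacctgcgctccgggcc
The Aqp2 sequence held 1 TGACG and 1 AGATAA, close to each other and without overlap, and no TGGAAA, the core of the tonicity element bound by NFAT5. The Aqp3 sequence held none of these 3. Of 32851 promoters of the same length, 17.8% held TGACG, 9.99% AGATAA and 18.6% TGGAAA. A promoter was in the table for 8 of the 10 genes.

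Aqp4, the other basolateral channel of principal cells, which is also found in the proximal tubule of mice, was not called where Aqp2 and Aqp3 were. Its values were 5522, 5941, 4592 and 3670 in ND_C and 6856, 6064, 3927 and 6012 in D_C. All D_C kidneys but D_C 3 lay above every ND_C kidney, and the log2 difference was 0.21 ± 0.26 (adjusted p = 0.726). In ND_B12 the values were 7058, 6892, 5544 and 4441, and in D_B12 5946, 2312, 3471 and 2602. Of the D_B12 kidneys, 3 lay below every other library, and the difference of -0.74 ± 0.26 between the B12-treated groups was not called (adjusted p = 0.155), nor was that of -0.85 without D_C 1 and ND_B12 4. The average difference without them was -0.37 (adjusted p = 0.259). The ratio of Aqp2 to Aqp4 was 1.24 ± 0.40 in ND_C and 3.49 ± 1.45 in D_C, and 1.48 ± 1.02 in ND_B12 and 3.53 ± 1.03 in D_B12.

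Slc14a2 had the most uneven values of the 10 genes. The 4 ND_C kidneys had 2578, 1662, 1397 and 1685 and the ND_B12 kidneys 3417, 1983, 716 and 1834. With diabetes, the counts were 2574, 6904, 2599 and 6445 untreated and 6941, 2403, 1220 and 712 under B12. The 3 highest kidneys, D_C 2, D_C 4 and D_B12 1, were all diabetic, but the lowest kidney, D_B12 4, was as well. The log2 difference was 1.34 ± 0.59 in untreated kidneys (adjusted p = 0.232) and 0.92 ± 0.41 on average (adjusted p = 0.233), and neither was called. Without D_C 1 and ND_B12 4 they were 1.54 and 1.00, also not called.

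The gene gives rise to several urea transporters, which the deposited transcript table counts apart. The long form UT-A1, of 930 codons, is made in the inner medullary collecting duct, as is UT-A3, of 461 codons, while UT-A2, of 397 codons, is made in the thin descending limb. UT-A2 was present in every library, between 708 and 3399 normalized counts. UT-A1 was at 569, 0, 0 and 0 in the ND_C kidneys and at 0, 638, 8.71 and 802 in those of ND_B12. It reached 1249, 4679, 345 and 3354 in the D_C kidneys, and 5349, 0, 0 and 0 in those of D_B12. All 4 D_C kidneys thus had UT-A1 counts, but 7 libraries had none, 4 of them non-diabetic and 3 diabetic. These counts are estimates, and the main UT-A1 transcript and the UT-A2 transcript end at the same base (18:78189363). Reads from shared sequence may have been assigned to either, so a count of 0 need not mean that UT-A1 was absent. Where counted, UT-A1 made up from 1.22% of the gene in ND_B12 3 to 77.0% in D_B12 1. UT-A3 was low in every library, with at most 190, in D_B12 1, and lay below UT-A1 wherever UT-A1 was counted.

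UT-A1 varied more between libraries than UT-A2 did. The main UT-A1 transcript differed by 3.02 ± 1.94 on the log2 scale between diabetic and non-diabetic kidneys (adjusted p = 0.642), and the UT-A2 transcript by 0.10 ± 0.33 (adjusted p = 0.968). Of the transcripts of the 10 genes 0 were called, as were 0 of all 66503 tested in edgeR (0% called, 6760 at an unadjusted p below 0.05). DESeq2 called 3 transcripts of the 10 genes, and 2.82% of all transcripts. In the 3 kidneys with the most UT-A1 (D_B12 1, D_C 2 and D_C 4), Aqp2 was 20632, 27158 and 23006, the highest 3 values of the series. In the libraries with no UT-A1 counts, Aqp2 was 5335, 4197, 6249 and 6593 in the 4 non-diabetic and 11557, 10364 and 6943 in the 3 diabetic kidneys. Each of these diabetic kidneys was above each of the non-diabetic. This comparison was made after the values had been seen, and the share of inner medulla in each piece of kidney was not measured.

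**Figure D2:**
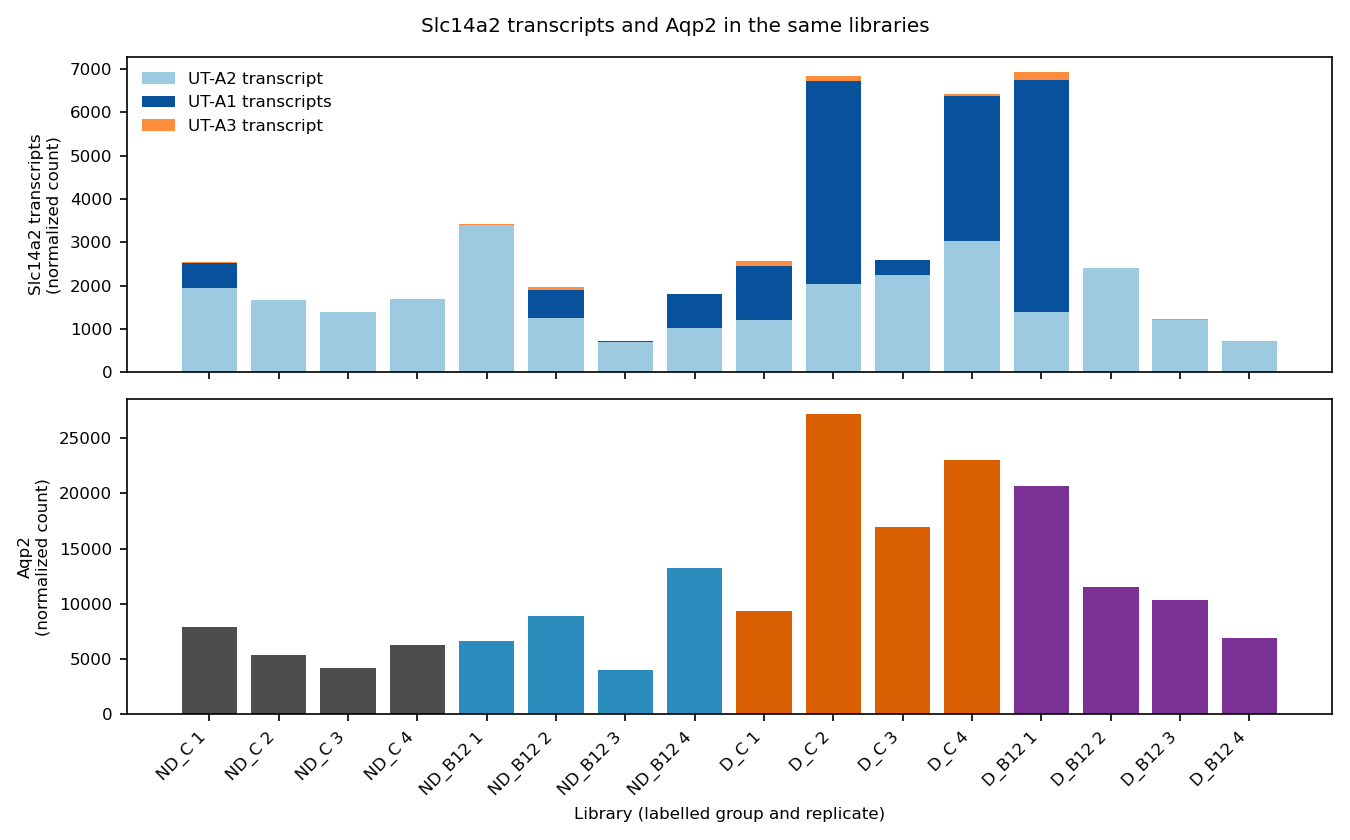
Upper panel, normalized counts of the UT-A2, UT-A1 and UT-A3 transcripts of Slc14a2 stacked for each library. Lower panel, normalized counts of Aqp2 in the same libraries, coloured by labelled group. UT-A2 was present throughout, UT-A1 was 0 in 7 libraries and at most 5349 in D_B12 1, and the highest 3 Aqp2 values fell in the 3 libraries with the most UT-A1.

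Aqp1, the constitutive channel of the proximal tubule and thin descending limb, ranged from 50602 to 54667 in ND_C and from 49427 to 65985 in D_C (log2 difference 0.14 ± 0.09, adjusted p = 0.452). In the B12-treated groups it ranged from 54576 to 63003 without diabetes and from 44445 to 53299 with it, and these did not overlap. The difference of -0.24 ± 0.09 was not called (adjusted p = 0.180), nor was that of -0.19 without D_C 1 and ND_B12 4, where the average difference was -0.011, and 11.7% of all genes were without overlap in this comparison. Slc34a1, the phosphate transporter of the proximal tubule, fell on average (-0.25 ± 0.05, adjusted p = 0.0178), and the ratio of Aqp1 to Slc34a1 was 0.125 ± 0.0106 in ND_C and 0.166 ± 0.0260 in D_C, but 0.133 ± 0.00724 in ND_B12 and 0.130 ± 0.0137 in D_B12.

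Aqp7, a glycerol and water channel of the late proximal tubule, ranged from 1970 to 2628 in the non-diabetic kidneys, from 1780 to 3104 in D_C, and in D_B12 from 2191 to 2705. Its lowest value belonged to D_C 1 and the highest of the non-diabetic values to ND_B12 4. The average difference of 0.17 ± 0.09 was not called with all libraries (adjusted p = 0.346) and was 0.28 without these 2 (adjusted p = 0.0205, over a range of 0.0205 to 0.945 in all alternatives). Of its 2 main transcripts, which both encode 303 residues, Aqp7-202 held 83.7% of the counts and Aqp7-201 15.8%.

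Aqp11, an intracellular aquaporin of the proximal tubule whose loss in mice leads to vacuolated tubules and kidney cysts, was lower in diabetic kidneys. Non-diabetic kidneys had 4372, 5206, 5039 and 5626 untreated (ND_C) and 5217, 5196, 6205 and 5574 with B12. Diabetic kidneys had 4746, 4256, 4713 and 4386 untreated (D_C) and 4572, 4947, 4184 and 4635 with B12. Every diabetic kidney was below every non-diabetic kidney except ND_C 1. The average difference was a fall of 14.1% (log2 -0.22 ± 0.06, adjusted p = 0.0463), and -0.23 without D_C 1 and ND_B12 4. In the B12-treated groups it was -0.28 ± 0.08 (adjusted p = 0.0960), and in the untreated groups -0.16 ± 0.08 (adjusted p = 0.291). The B12-treated groups did not overlap, which was so for 11.7% of all genes. The call held without ND_C 1, ND_B12 4, D_C 1 or D_B12 2 and was lost without any of the other libraries (-0.25 to -0.19, adjusted p 0.0304 to 0.0966). It was also lost with the replicate block, upper-quartile normalization, no filter beyond 1 count and the label date (adjusted p up to 0.519). Proximal tubule markers were lower alongside it, with a median of -0.22. Of these 10, 2 were called, Slc34a1 and the fatty acid transporter Slc27a2 (-0.26 ± 0.06), against 3.02% of all genes. The part of the proximal tubule markers in the Aqp11 difference was not tested.

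Umod was lowest in the kidneys labelled D_B12. The ND_C kidneys had 187988, 162864, 167690 and 208794 normalized counts and the ND_B12 kidneys 198684, 192814, 167873 and 128489. The D_C kidneys had 178723, 138466, 159014 and 177320, and those of D_B12 107494, 112969, 116094 and 138458. All D_B12 kidneys lay below all D_C kidneys, although the closest pair, D_B12 4 and D_C 2, were nearly level, and of the ND_B12 kidneys only ND_B12 4 reached into their range. The average diabetes difference was -0.35 ± 0.09 (adjusted p = 0.0533) and that in B12-treated kidneys -0.54 ± 0.13 (adjusted p = 0.0607), both just short of a call. Without D_C 1 and ND_B12 4 they were -0.43 (adjusted p = 0.00431, over a range of 0.00431 to 0.320 in all alternatives) and -0.65 (adjusted p = 0.00871, range 0.00417 to 0.194). In untreated kidneys the difference was -0.15 ± 0.13 (adjusted p = 0.579). A single transcript, Umod-201, held 92.7% of the counts.

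Of 10 other markers of the thick ascending limb, 2 were called on average, 1 higher and 1 lower with diabetes, against 3.02% of all genes. The lower one was Casr, the calcium-sensing receptor, which fell by 0.45 ± 0.11 on the log2 scale (adjusted p = 0.0382). Egf, the growth factor precursor secreted into urine, differed by -0.26 ± 0.08 (adjusted p = 0.0795). Slc12a1, the sodium, potassium and chloride cotransporter NKCC2, differed by 0.07 ± 0.11 on average, with a sign that turned without D_C 4 and with the label date. Between ND_C and D_C, Slc12a1 differed by 0.41 ± 0.15 (adjusted p = 0.158) and Umod by -0.15 ± 0.13. Neither was called, and both enter their ratio. The ratio of Umod to Slc12a1 fell between 2.22 and 2.90 in the ND_C kidneys (mean 2.64 ± 0.30) and between 1.39 and 2.62 in D_C (1.87 ± 0.53), with means of 2.32 ± 0.25 for ND_B12 and 1.94 ± 0.26 for D_B12. The summed markers of this segment, Umod not among them, lay between 179703 and 202228 in D_B12 and between 206653 and 303272 in the other groups, and mitochondrially encoded genes took 12.4 to 13.1% of counts in D_B12 against 8.35 to 11.8% in D_C. The part of these in the Umod difference was not tested. Of 6 genes for uromodulin processing and transcription, among them the protease hepsin (Hpn), 0 were called.

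B12 was compared with no treatment within each genotype, and 0 of the 10 genes were called in either. In non-diabetic kidneys 0% of all genes were called in edgeR (1937 had an unadjusted p below 0.05, and DESeq2 called 6 in all), and only Aqp3 of the 10 had an unadjusted p below 0.05, at 0.34 ± 0.13 (adjusted p = 0.602). In diabetic kidneys 0% of all genes were called as well (3468 at an unadjusted p below 0.05, 670 called by DESeq2). The log2 difference of D_B12 from D_C was -0.46 ± 0.13 for Umod (adjusted p = 0.149), -0.67 ± 0.26 for Aqp4 (adjusted p = 0.264), -0.29 ± 0.13 for Aqp3 (adjusted p = 0.344), -0.25 ± 0.09 for Aqp1 (adjusted p = 0.242) and -0.62 ± 0.38 for Aqp2 (adjusted p = 0.506). Umod was without overlap between D_B12 and D_C, as were 6.58% of all genes. DESeq2 called Umod alone of the 10. Aqp3 alone was called without D_C 1 and ND_B12 4. Since the published group means matched these 2 sets of libraries the other way round, the sign of each of these differences may be the reverse of the treatment's.

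In B12-treated kidneys diabetes changed 0 of the 10 genes by the adjusted test, where 0.823% of all genes were called, and for the interaction 0 of 10 were called against 0% of all genes (4093 at an unadjusted p below 0.05, 943 called by DESeq2). DESeq2 called 4 of the 10 on average (7.23% of all genes), 2 in untreated kidneys (6.44%), 2 in B12-treated kidneys (4.68%), 1 for B12 in diabetic kidneys (2.64%) and 1 for the interaction (3.71%). With D_C 1 and ND_B12 4 left out, edgeR called 2 in untreated kidneys (8.57%), 1 in B12-treated kidneys (2.8%), 1 for B12 in diabetic kidneys (0.87%), 1 for the interaction (0.35%) and 3 transcripts (0.695%). The comparisons share their groups and are not independent of each other. The median log2 change of the 10 genes was -0.02 for the average diabetes effect and 0.16 in untreated kidneys, beside 0.01 and -0.0034 over all genes tested, and on average 5 of the 10 were higher and 5 lower.

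**Figure D3:**
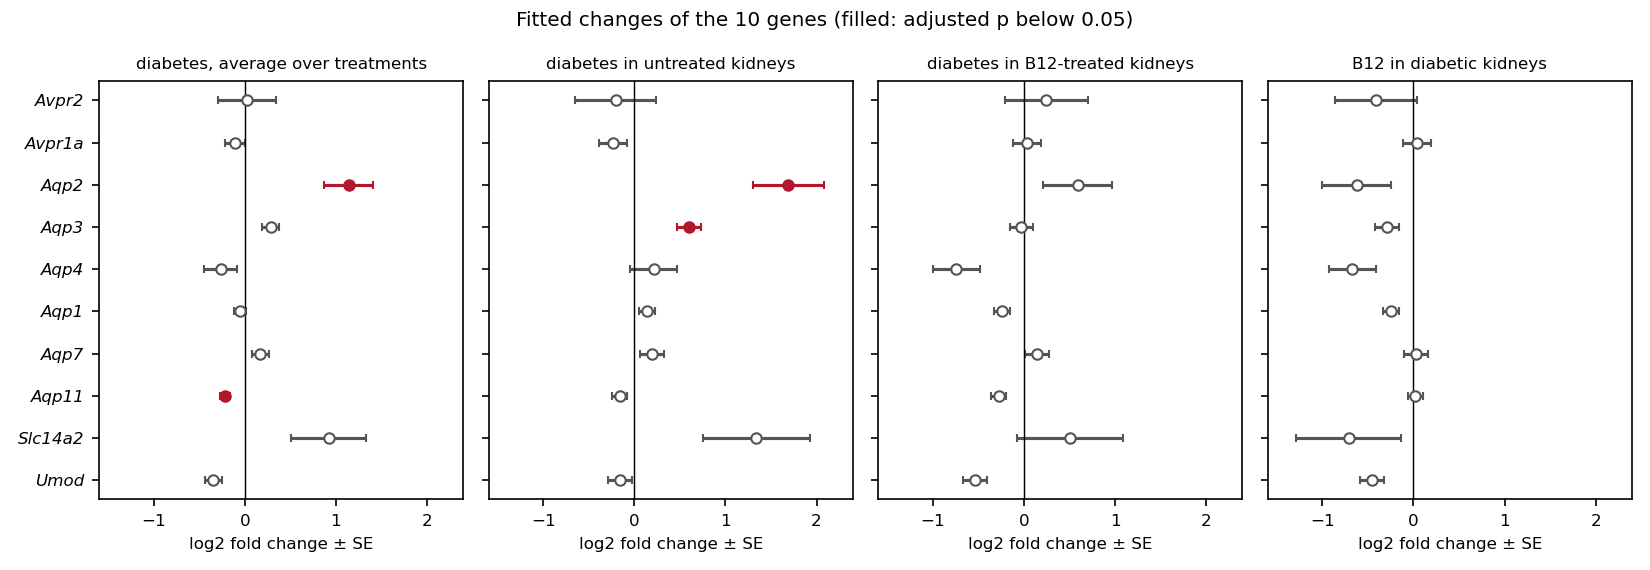
Log2 fold changes with SE of the 10 genes in 4 comparisons of labelled groups, with filled red points for an adjusted p below 0.05. Aqp2 and Aqp3 were called in untreated kidneys, Aqp2 (1.14) and Aqp11 (-0.22) on average over treatments, and none of the 10 in B12-treated kidneys or for B12 in diabetic kidneys.

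Of 18 further genes of the vasopressin pathway, for receptors, cAMP signaling and the opposing prostaglandin receptors, 16 were tested and 0 called, with a median log2 difference of 0.03 on average over treatments. The adenylyl cyclase Adcy6, which principal cells use in the response to vasopressin, differed by 0.13 ± 0.05 (adjusted p = 0.127). The genes for the hormone itself and for the pituitary receptor, Avp and Avpr1b, were too low to test. Of 16 genes for the vesicle traffic that carries AQP2, 0 were called (median -0.05). Of 12 transcription factors of the collecting duct 1 was called, against 3.02% of all genes. This was the epithelial ETS factor Ehf. It rose by 0.52 ± 0.13 (adjusted p = 0.0422, range over alternatives 0.00272 to 0.141). In untreated kidneys 11 of these 12 were higher (median 0.13), and Ehf was the 1 called (0.90 ± 0.18, adjusted p = 0.0348), against 1.66% of all genes. There the vasopressin pathway had a median of 0.13 and the vesicle traffic genes one of -0.02, with 0 called in either.

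Other channels for water and urea were not called on average with all libraries. Aqp6, an anion-permeable aquaporin of intercalated cells, differed by 0.48 ± 0.14 (adjusted p = 0.0675) and was called at 0.64 without D_C 1 and ND_B12 4 (adjusted p = 0.00139, range over alternatives 0.00139 to 0.629). In untreated kidneys, where Aqp2 and Aqp3 and 1.66% of all genes were called, Aqp6 was the 1 of 4 other aquaporins called, at 1.00 ± 0.20 (adjusted p = 0.0335). The rare Aqp8 and Aqp5 differed by 0.91 ± 0.31 and 1.27 ± 0.67, at means of 54.1 and 10.8 normalized counts in non-diabetic kidneys, and neither was called, although Aqp8 was without D_C 1 and ND_B12 4 (1.11, adjusted p = 0.0128). Slc14a1, the urea transporter UT-B of vasa recta and red cells, differed by 0.89 ± 0.32 (adjusted p = 0.135). Arg2, the mitochondrial arginase that produces urea within the kidney, was the 1 of 4 further urea genes called, with 248 ± 50.4 normalized counts without diabetes and 400 ± 105 with it (SD, n = 8, log2 fold change 0.70 ± 0.16, adjusted p = 0.0331). Among 5 thin limb markers tested 2 were called, among them Fst, the activin-binding protein follistatin (1.12 ± 0.25, adjusted p = 0.0266). The counts called of urea genes and thin limb markers stand beside 3.02% of all genes. Of the list genes called, Slc34a1 held without any single library but was lost with the label date in the fit (adjusted p = 0.447), where Fst differed by 0.35 (adjusted p = 0.846). The call of Fst was lost without ND_C 3, ND_B12 1 to 3, D_C 2, D_C 4 or D_B12 3, and those of Arg2, Ehf, Casr and Slc27a2 were each lost without any single one of several libraries, among them for all 4 ND_C 2 and 3, ND_B12 2 and 3, D_C 4 and D_B12 1 to 3, with adjusted p up to 0.0732, 0.0859, 0.0868 and 0.0824.

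**Figure D4:**
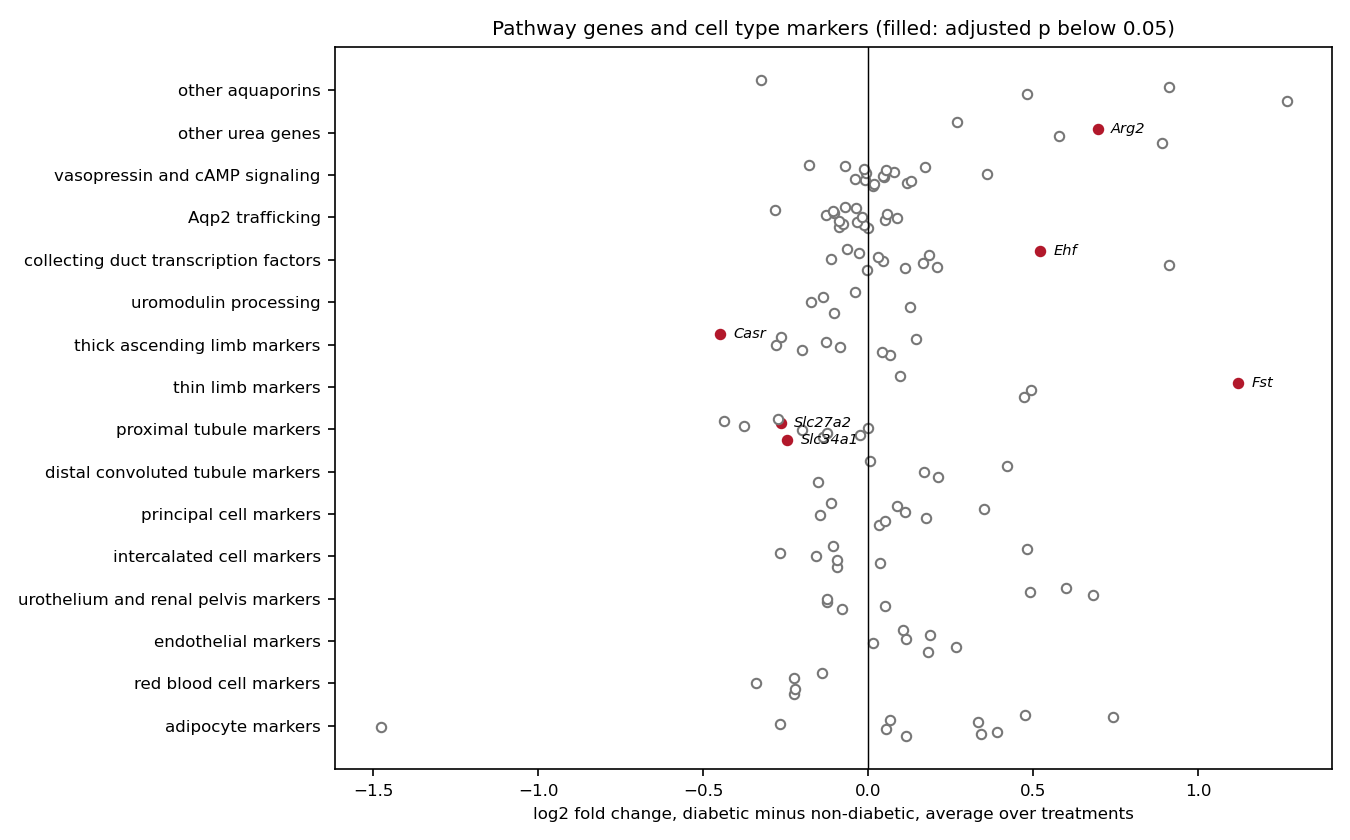
Log2 fold change for diabetes, averaged over treatments, of the tested and reported genes in lists of pathway genes and cell type markers, with filled and named points for an adjusted p below 0.05. Genes of vasopressin signaling and Aqp2 trafficking lay around 0, and the called genes shown were Arg2, Ehf and Fst above it and Casr, Slc34a1 and Slc27a2 below it.

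Across the 16 libraries, which share the groups and the uneven tissue content described above, the genes most like each member in log2 CPM were sought among 16072 genes. For Aqp2 these were Ranbp3l, Aldoc and Fgf12 (Pearson r = 0.965, 0.951 and 0.948), and for Aqp3 Myo1d, Tmtc1 and Adgrf5 (0.957, 0.943 and 0.929). For Slc14a2 they were Grhl2, Mprip and Scel (0.918, 0.917 and 0.915), and for Umod Slit2, Fam107a and Cybb (0.944, 0.906 and 0.902). The closest gene to Aqp11 was Mgat3 (0.913), to Aqp1 Clstn1 (0.922), to Aqp7 Chmp7 (0.923) and to Avpr1a Osgep (0.881). The lowest best matches were those of Aqp4 (Plpp3, 0.820) and Avpr2 (Adss1, 0.799).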

How the data were processed

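Kidney RNA of 16 mice was compared between the 4 labelled groups. Paired reads had been mapped with STAR (GRCm39, GENCODE vM35) by the authors, who deposited estimated counts per gene and per transcript made with StringTie and prepDE, which are whole numbers. Versions of STAR and StringTie are not given in the sources used here, and reads were demultiplexed with bcl2fastq 2.20.0 per the labels. Totals were 65271308 to 91771136 counts per library, so the spread between mice (biological coefficient of variation 0.201) limits precision more than counting.

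Genes with at least 100 counts over all libraries (25408 of 57186) were tested in R 4.3.3 with edgeR 4.0.16 (TMM, glmQLFit, glmQLFTest), in a single fit of the 16 libraries with the labelled group as the only factor. Adjustment was by Benjamini-Hochberg over all genes, and 12 degrees of freedom remained for the residuals. Transcripts were tested in the same way (66503 of 149194, coefficient of variation 0.652). Tests were two-sided. To normalize, each count was divided by the library's size factor (median of ratios). TPM were computed from the transcript counts and lengths of GENCODE vM39, which held 148994 of the transcripts. DESeq2 1.42.0 was an alternative, as were other normalizations and filters, the label date, a replicate block, fits of the compared groups alone, and fits leaving out 1 library or both contradicted ones. The fits were tested on simulated data. Tables were handled with Python 3.11.15 and pandas 2.3.3, and plots were drawn with matplotlib 3.10.9.

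The members, gene lists and alternatives were chosen with earlier results of these data known. Named genes were all 10 members, every list gene called for the average diabetes effect and otherwise up to 4 of the most abundant of a list, transcripts with at least 10% of a member's counts, and for each member up to 3 genes with the highest correlation (log2 CPM, prior count 2, mean of at least 1 CPM). Outside this rule, Arhgap4, Avp, Avpr1b, Kcne1, Cdh5, Plvap and Pecam1 were named after their values were seen, for their overlap with or relation to a member, or as markers called in an alternative fit. Fxyd4 was also named after its values were seen, as the principal cell marker with the largest difference in untreated kidneys. The markers of endothelium, red blood cells, adipocytes, urothelium, distal convoluted tubule and intercalated cells had 0 genes called for the average diabetes effect. Without D_C 1 and ND_B12 4, 3 endothelial, 3 distal convoluted tubule, 1 intercalated cell and 1 red blood cell marker were called, and 0 of the others, where 10.2% of all genes were called. Adrenal markers summed to at most 565 normalized counts. Antisense genes share exonic bases with Aqp2 (665), Umod (539), Avpr1a (134) and Aqp7 (50), and whether counting was strand-specific is not stated. Some list genes are not reported here.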

Additional observations from a re-analysis of the deposited data

Results flagged for a closer look

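Values of 1 library that stood apart from the other 3 of its group (by Dixon's test of the gap to the nearest value) were sought for each member and its main transcripts in 64 groups, and 11 were found. For independent, normally spread values chance gives about 1 in 20. Genes and their own transcripts are counted here side by side, and some flagged groups held 0 in the other 3 libraries. The 11 therefore cannot be read against that rate. For Avpr2 the value of 844 in ND_C 4 stood above the other 3 (159 to 188), and its transcripts Avpr2-201 (630.5 against 91.8 to 135) and Avpr2-202 (207 against 52.7 to 65.1) were high in the same library, where the opposite-strand gene Arhgap4 was at its lowest. Avpr2-201 was also high in D_C 2 (269 against 195 to 204) and D_B12 1 (299.9 against 109 to 134), both among the kidneys with the most UT-A1.

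For Aqp3 the value of 6391 in D_C 1 stood below the other 3 D_C kidneys (9211 to 9594), and D_C 1 is the library whose diabetes label was contradicted. The Slc14a2-206 transcript, which encodes UT-A1, was at 552 in ND_C 1 and at 5340 in D_B12 1, with 0 in the other 3 kidneys of each group. The minor transcript Aqp7-201 was high in ND_C 3 (409 against 149 to 192), ND_B12 4 (483 against 147 to 173) and D_B12 2 (1545 against 244 to 396).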

How the results depend on the processing

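No pairing of samples by replicate number was detected, although 4 libraries per group are too few to exclude it. Over 24 pairs of same-numbered libraries the correlation of deviations from the group means ran from -0.18 to 0.17 (median -0.0065), with 3 over 0.1. With the replicate block, members called were 1 for the average diabetes effect and 0 in untreated kidneys (2 in each without it), and 0 in the other comparisons and among transcripts. For the average effect they were 4 with DESeq2, 5 without D_C 1 and ND_B12 4, 1 with upper-quartile normalization and 0 with no filter beyond 1 count or with the label date, and in untreated kidneys 0 with either of the last 2 settings. DESeq2 called 2 in B12-treated kidneys, 1 for B12 in diabetic kidneys, 1 for the interaction and 3 transcripts, and leaving out both contradicted libraries gave 1, 1, 1 and 3. Both settings also called more of all genes, at 7.23% and 10.2% for the average effect. Leaving out 1 library at a time gave 0 to 4 members for the average effect, 0 to 2 in untreated kidneys, and 0 to 1 in B12-treated kidneys and for the interaction. The causes were not tested.

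Signs turned only for differences that were not called. With the label date the average diabetes effect was 0.59 for Aqp4, -0.057 for Aqp7, -0.14 for Scnn1b, -0.059 for Scnn1g and -0.25 for Slc12a1, that in B12-treated kidneys 0.37 for Aqp4, and the B12 difference in diabetic kidneys 0.084 for Aqp4, -0.16 for Aqp7 and 0.56 for Slc14a2. Without D_C 1 and ND_B12 4 the B12 difference in diabetic kidneys was -0.091 for Aqp7. Over the libraries left out, the average effect ran from -0.14 to 0.50 for Avpr2 and -0.030 to 0.13 for Slc12a1, and the B12 difference in diabetic kidneys from -0.085 to 0.13 for Avpr1a, -0.079 to 0.18 for Aqp7 and -0.018 to 0.061 for Aqp11. Transcript fits are limited by a spread between mice that is wider than for genes, and by forms counted at 0 in some libraries.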
